A study of Homo sapiens with 12 samples.

Results

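The uroplakin genes were followed in transcriptomes of pancreatic adenocarcinoma cells sorted by the GCTM-5 antibody. Their rows were found by gene symbol alone, and *UPK1A*, *UPK1B*, *UPK2*, *UPK3A* and *UPK3B* gave 5 of the 23346 genes in the expression table. The study sorted 2 established human pancreatic adenocarcinoma lines, SW1990 and CFPAC-1, on staining with this antibody, which recognises a cell surface antigen complex related to the pancreatic cancer marker CA 19-9. Within each line, 3 samples of strongly stained (positive) cells and 3 of unstained (negative) cells were sequenced, so that 4 groups of 3 samples could be compared. Neither line carried an added allele or agent, both were grown in the same medium, and cells of intermediate staining lay outside the sorting gates. The study also worked with a cloned GCTM-5 positive subline of SW1990, and the labels call the sorted cells SW1990 alone. The samples of a group were separate sorts of 1 cultured line, so that the spread behind every p-value is the spread between sorts and not between patients.

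Uroplakins are the membrane proteins of the urothelial plaque, the crystalline sheet that covers the apical face of bladder umbrella cells and seals the urinary tract. The tetraspanins UPK1A and UPK1B each pair with a partner that crosses the membrane once. UPK1A pairs with UPK2, and UPK1B pairs with UPK3A or UPK3B. UPK1B and UPK3B are also known from mesothelium, whereas none of the family belongs to the classical markers of the pancreatic duct.

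Levels are given as RPKM, read counts scaled by gene length and by library size, as the authors deposited them. Library totals recovered from the RPKM values lay between 9969697 reads in CFPAC-1 positive replicate 3 and 26159330 in CFPAC-1 positive replicate 1. CFPAC-1 positive replicate 3 was also the sample farthest from its group, with a median absolute log2 difference of 0.296 from the other replicates against 0.118 to 0.215 in the other 11 samples. All 5 ductal epithelial markers (*EPCAM*, *KRT7*, *KRT8*, *KRT18*, *KRT19*) were at 1 RPKM or more in all 12 samples. Their summed level was 1580 to 1930 RPKM in SW1990 negative and 4250 to 4750 RPKM in SW1990 positive samples. In CFPAC-1 it was 5330 to 6100 RPKM in negative and 6580 to 8060 RPKM in positive samples. The 4 fibroblast markers summed to 9.25 to 19.1 RPKM in SW1990 negative and 2.04 to 3.14 in SW1990 positive samples, mostly as *LUM*, with *DCN* and *COL1A2* at 0.0899 RPKM or less. *PDGFRB* was at 1.47 to 1.98 RPKM in SW1990 negative and 0.0206 to 0.0541 RPKM in SW1990 positive samples. The 3 endothelial markers summed to 14.8 to 18.8 and 1.47 to 2.05 RPKM in these groups, nearly all of it *CDH5*. In CFPAC-1 both lists stayed at or below 1.05 RPKM. The leukocyte sum in CFPAC-1, 8.61 to 9.57 RPKM in negative and 2.6 to 4.38 in positive samples, was *CD14* with at most 0.0704 RPKM of *PTPRC* or *CD3E*. The part of these marker differences in the uroplakin results was not tested, and in bulk RNA fewer expressing cells cannot be told apart from less RNA per cell.

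The family was split between a well expressed gene, genes that moved with GCTM-5 and genes at the limit of detection. *UPK3B* was the uroplakin with the highest level in every sample, between 24.8 and 103 RPKM, and stood at the 90.7 to 96.5 percentile of all genes above 0 in the 4 groups. *UPK2* went from the 34.4 percentile in SW1990 negative cells to the 91.8 percentile in SW1990 positive cells. *UPK1B* was a CFPAC-1 transcript, whereas *UPK1A* and *UPK3A* never passed 0.416 RPKM. Both members of the UPK1A and UPK2 pair were thus above the limit of 3 reads only in SW1990 negative cells, where *UPK2* was low, and a partner of UPK1B was found at more than 3 reads with it only in CFPAC-1, in the form of *UPK3B*. The plot of RPKM by sample shows these patterns gene by gene.

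**Figure D1:**
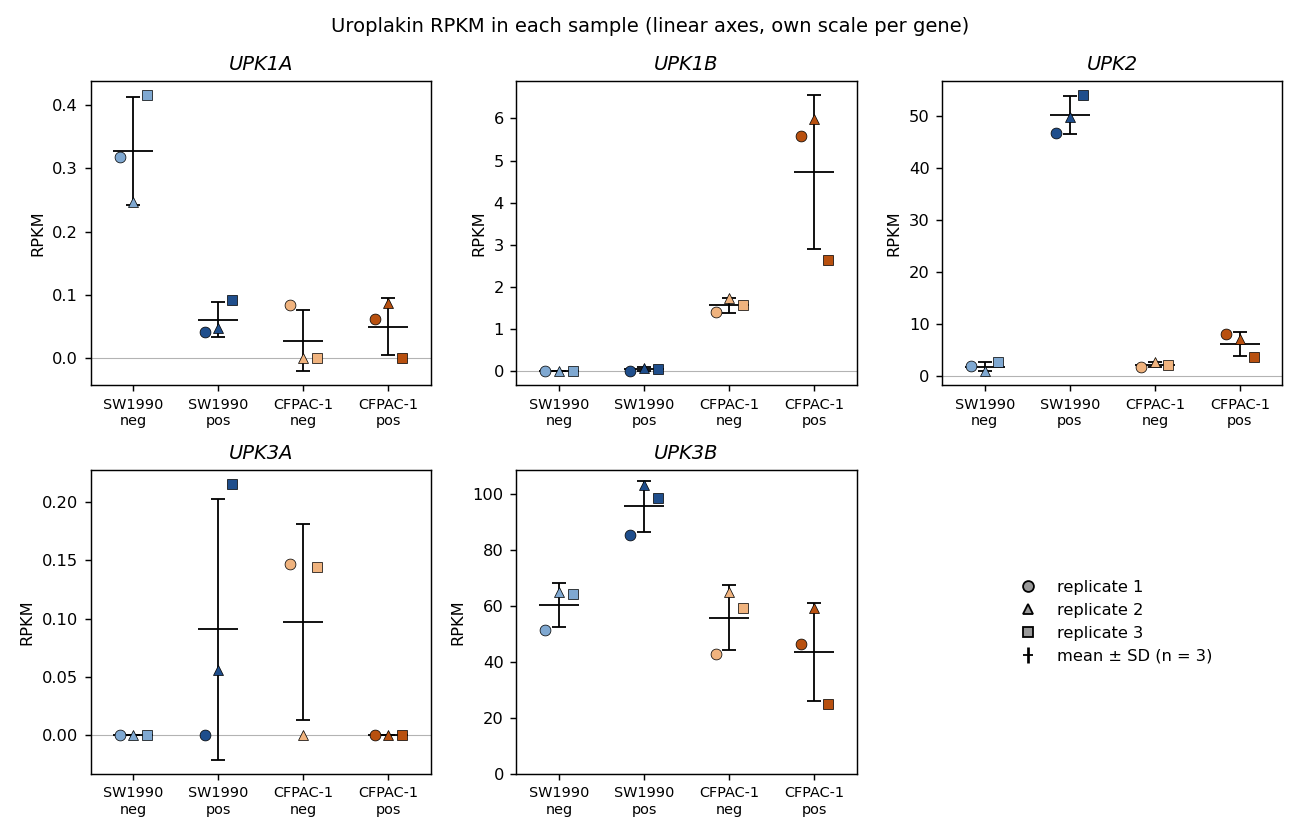
RPKM of the 5 uroplakins in each of the 12 samples, on a linear axis with its own scale for each gene, where neg and pos are GCTM-5 negative and positive cells, symbols are replicates and lines are the mean ± SD of 3 samples. *UPK2* reached 46.8 to 54.1 RPKM in SW1990 positive cells and 8.06 or less elsewhere, *UPK1B* was above 0.0859 RPKM only in CFPAC-1, and *UPK3A* did not exceed 0.216 RPKM anywhere.

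The stretches around the annotated starts of *UPK1A*, *UPK1B* and *UPK3B* are shown as a description. *UPK2* and *UPK3A* had no entry in the promoter table. No link between the letters of a promoter and the level of its RNA was tested. The sequences are those of RefSeq on GRCh38.p14, 250 bases before to 50 bases after the start, and 3 of the 5 members had a match in the promoter table. All lie on the + strand, at chr19:35666267-35666566 for *UPK1A*, chr3:119173348-119173647 for *UPK1B* and chr7:76510302-76510601 for *UPK3B*. Capitals mark matches, on either strand, to any of 5 motifs searched. The first was AACCGG, part of the grainyhead-like site, and another was AGATAA, bound by the GATA factors of the urothelium. The others were CTTCCT, an ETS core with its flank, GGGCGG, known as the SP and KLF box, and TATAAA, the core promoter box of that name.
UPK1A: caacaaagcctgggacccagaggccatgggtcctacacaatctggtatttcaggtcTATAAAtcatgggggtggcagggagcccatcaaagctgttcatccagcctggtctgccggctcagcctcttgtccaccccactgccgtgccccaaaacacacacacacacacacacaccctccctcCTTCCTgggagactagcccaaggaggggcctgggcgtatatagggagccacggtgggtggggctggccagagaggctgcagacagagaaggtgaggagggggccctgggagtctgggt
UPK1B: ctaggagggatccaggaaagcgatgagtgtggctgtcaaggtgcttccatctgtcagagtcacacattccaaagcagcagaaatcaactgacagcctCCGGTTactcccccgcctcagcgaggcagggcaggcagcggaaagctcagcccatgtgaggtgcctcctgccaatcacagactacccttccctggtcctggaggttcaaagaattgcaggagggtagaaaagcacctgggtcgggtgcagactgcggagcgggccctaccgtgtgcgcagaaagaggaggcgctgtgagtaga
UPK3B: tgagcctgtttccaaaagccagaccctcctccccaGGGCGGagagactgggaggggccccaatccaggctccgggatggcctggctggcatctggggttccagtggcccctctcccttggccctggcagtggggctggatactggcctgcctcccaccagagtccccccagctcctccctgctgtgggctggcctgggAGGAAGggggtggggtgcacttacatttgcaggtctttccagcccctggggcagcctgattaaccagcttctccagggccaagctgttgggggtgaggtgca

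No motif was shared by all 3 promoters. *UPK1A* held TATAAA, which is in 9.5% of the 14060 promoters of the table, and CTTCCT, which is in 34.0% of them. These matches began at -194 (TATAAA) and -68 (CTTCCT) from the annotated start. The search took no account of position, so that the TATAAA match is not shown to be a core promoter box. *UPK1B* held CCGGTT, the reverse complement of AACCGG, a motif found in 8.98% of promoters. *UPK3B* held GGGCGG, found in 58.8% of promoters, and AGGAAG, the reverse complement of CTTCCT. None of the 3 windows held AGATAA or its reverse complement, which 7.8% of promoters hold. A match describes the letters and not a site in use.

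Each comparison was fitted across 16236 genes whose RPKM averaged 0.1 or more over the samples, which kept 4 of the 5 uroplakins and left out *UPK3A*. *UPK1A* was kept only through its level in SW1990 negative cells and *UPK1B* only through CFPAC-1, so that the counts of tested members are a description and carry no weight as evidence. With no filter on low values, all 5 were fitted and 2, 2 and 2 were called in SW1990, in CFPAC-1 and for the difference between the lines. Changes are differences in log2(RPKM + 0.1) and understate the change of a gene near 0. Between positive and negative cells a gene was counted as changed when it differed over 2-fold with an unadjusted p under 0.01, and between lines when its adjusted p was under 0.05. In SW1990, 2 of the 4 uroplakins tested changed, *UPK2* upwards and *UPK1A* downwards, where 12.1% of all genes changed (4.59% upwards and 7.48% downwards). In CFPAC-1, *UPK1B* and *UPK2* rose and none fell, where 9.78% of all genes changed (5.65% upwards and 4.13% downwards). *UPK2* was the member that rose in both lines, as did 0.591% of genes. The change differed between the lines for 3 of the 4, higher in SW1990 for *UPK2* and *UPK3B* and lower for *UPK1A*, against 26.9% of all genes (9.16% higher and 17.8% lower). The median over all genes was -0.15 in that comparison, -0.04 in SW1990 and 0.05 in CFPAC-1.

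Among the tetraspanins, *UPK1A* (GRCh37 chr19:36157419-36169383, + strand) carries the UPK1A protein to which the FimH adhesin of uropathogenic *Escherichia coli* binds. It was at 0.318, 0.246 and 0.416 RPKM in SW1990 negative replicates 1 to 3, from 8, 7 and 9 reads. In SW1990 positive cells it was at 0.0421, 0.0482 and 0.0923 RPKM, from 1, 1 and 2 reads. The SW1990 groups did not overlap, as was the case for 25.4% of all genes in the downward direction.

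On the fitted scale *UPK1A* was at -1.40 (SE 0.35) in SW1990 positive against negative cells. SW1990 negative cells alone had carried the gene past the filter on low values, and without that filter the adjusted p was 0.00533. By pooled reads, 24 against 4, its level was 5.28-fold lower, with an exact 95% counting interval of 1.81 to 20.9. A pseudocount of 1 left a change of -0.32 and a pseudocount of 0.01 an adjusted p of 0.129, and the call was lost with both. *UPK1A* was therefore a rare transcript whose higher level in SW1990 negative cells rests on few reads. Reads were amplified by PCR, so that counting intervals here cover counting error only.

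In CFPAC-1, *UPK1A* was at 0.0840, 0 and 0 RPKM in negative and 0.0625, 0.0871 and 0 RPKM in positive cells, never more than 2 reads a sample. No difference between these groups was detectable at this depth. The fitted difference between the lines was -1.64 (SE 0.49), with an adjusted p of 0.0286, or 0.0174 without the filter. Over the alternatives it ranged from -3.25 to -0.35 and missed the threshold in 10 of 20. These were a pseudocount of 0.01 (-3.25, adjusted p = 0.126), quantile normalization (-1.36, adjusted p = 0.0528) and 8 fits in which any 1 of SW1990 negative replicates 1 and 3, SW1990 positive replicates 1 and 2, CFPAC-1 negative replicates 2 and 3 or CFPAC-1 positive replicates 1 and 2 was left out (-1.65 to -1.46). In negative cells, SW1990 exceeded CFPAC-1 by 1.78 (adjusted p = 0.000303 without the filter), 24 reads against 2. In positive cells the lines differed by 0.14 (95% interval -0.63 to 0.90, adjusted p = 0.751).

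*UPK1B* (GRCh37 chr3:118892364-118923990, + strand), the tetraspanin that partners UPK3A and UPK3B, separated the lines. It was at 1.40, 1.73 and 1.56 RPKM in CFPAC-1 negative replicates 1 to 3, from 56, 78 and 64 reads. In CFPAC-1 positive cells it was at 5.59, 5.98 and 2.63 RPKM, from 301, 231 and 54 reads. The CFPAC-1 groups did not overlap, which held for 28.1% of all genes in the upward direction. The fitted rise was 1.46 (SE 0.32, adjusted p = 0.00458), a 3.03-fold ratio of mean RPKM, 4.73 ± 1.83 against 1.56 ± 0.168 (SD, n = 3). Without CFPAC-1 positive replicate 3, its lowest positive sample, the rise was 1.83, and with a pseudocount of 0.01 it was 1.51 with an adjusted p of 0.118.

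No read of *UPK1B* was found in any SW1990 negative sample, and the SW1990 positive samples held 0, 3 and 2 reads. Both SW1990 groups were thus at or under the limit of 3 reads, and no fold is given for them (adjusted p = 0.279). SW1990 negative cells were at least 21.7-fold lower than CFPAC-1 negative cells, with 3 reads taken as the floor in each SW1990 library. Among positive cells CFPAC-1 was 115-fold higher by pooled reads, 586 against 5, with a counting interval of 49.2 to 357. The order of *UPK1B* was therefore CFPAC-1 positive, CFPAC-1 negative and then both SW1990 groups, which could not be ordered.

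The comparison of the *UPK1B* changes between the lines gave -0.95 (SE 0.46, adjusted p = 0.146). Its sign turned with a pseudocount of 0.01 (0.48) and with voom on recovered reads (0.23), and it passed the threshold with a pseudocount of 1 (-1.04, adjusted p = 0.0137) and without CFPAC-1 positive replicate 3 (-1.32, adjusted p = 0.0187). The SW1990 term of this difference comes from samples with 3 reads or fewer, so that it was not measurable at this depth.

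Among the single-pass partners, *UPK2* (GRCh37 chr11:118795873-118829269, + strand) encodes the partner of UPK1A. It is a gene that the study itself named from these samples, so that its direction is not independent evidence. It was at 1.98, 0.966 and 2.66 RPKM in SW1990 negative replicates 1 to 3 and at 46.8, 49.8 and 54.1 RPKM in SW1990 positive replicates. In CFPAC-1 it was at 1.81, 2.74 and 2.20 RPKM in negative and at 8.06, 7.07 and 3.65 RPKM in positive cells. In neither line did the groups overlap, as for 17.9% of all genes in SW1990 and 28.1% in CFPAC-1 in the upward direction, and the lowest positive sample of all, with 34 reads, was CFPAC-1 positive replicate 3.

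The negative cells of both lines held like levels of *UPK2*, with a difference of -0.34 (95% interval -1.09 to 0.40, adjusted p = 0.385), whereas the positive cells differed by 3.06 (SE 0.34, adjusted p = 8.84e-06), an 8.02-fold ratio of means. The rise was 4.78 (SE 0.34) in SW1990 and 1.38 (SE 0.34) in CFPAC-1, and the difference between these rises was 3.40 (SE 0.48, adjusted p = 0.000372). It lay between 3.01 and 3.70 under all 21 alternatives that could be fitted, and *UPK2* kept its call in both lines under all 23. Without CFPAC-1 positive replicate 3 the CFPAC-1 rise was 1.72 and the difference 3.06. The order of *UPK2* was thus SW1990 positive, CFPAC-1 positive and then both negative groups, which did not differ beyond their spread.

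The annotated *UPK2* gene overlaps *BCL9L* on the opposite strand. The gene length recovered from the RPKM values, 934 bases, equals that of a transcript of 5 exons at chr11:118827008-118829269, which lies outside *BCL9L*. That length is the smallest that gave whole reads, and the annotation used for counting is not given. Whether reads of *BCL9L* were counted for *UPK2* was not tested. *BCL9L*, a Wnt pathway coactivator, changed by 0.45 (adjusted p = 0.00394) in SW1990 and by -0.33 (adjusted p = 0.0193) in CFPAC-1, against 4.78 and 1.38 for *UPK2*.

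*UPK3A* (GRCh37 chr22:45680830-45691755, + strand), the classical partner of UPK1B in the urothelial plaque, was close to absent. It had 0 reads in all SW1990 negative and all CFPAC-1 positive samples. SW1990 positive replicates held 0, 1 and 4 reads (0, 0.0563 and 0.216 RPKM) and CFPAC-1 negative replicates 3, 0 and 3 reads (0.147, 0 and 0.144 RPKM). An exact permutation test gave a 2-sided p of 0.4 in each of 4 comparisons, where 3 samples against 3 cannot give less than 0.1. No fold is given, because 1 sample alone exceeded 3 reads.

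*UPK3B* (GRCh37 chr7:76139842-76145839, + strand), the partner of UPK1B that is also known from mesothelium, was well expressed in both lines and both populations. It was at 51.4, 65.0 and 64.4 RPKM in SW1990 negative replicates 1 to 3 and at 85.3, 103 and 98.4 RPKM in SW1990 positive replicates. In CFPAC-1 it was at 42.7, 65.1 and 59.2 RPKM in negative and at 46.4, 59.3 and 24.8 RPKM in positive cells. The SW1990 groups did not overlap, like 17.9% of all genes in the upward direction, whereas the CFPAC-1 groups did.

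*UPK3B* did not pass the criterion in either line, with 0.67 (SE 0.26, adjusted p = 0.0795) in SW1990 and -0.42 (95% interval -0.99 to 0.15, adjusted p = 0.23) in CFPAC-1. Without CFPAC-1 positive replicate 3 the CFPAC-1 value was -0.06. The difference between the lines was 1.09 (SE 0.37, adjusted p = 0.0477), just inside the threshold. It fell outside in 12 of 21 alternatives, namely when any 1 SW1990 sample, CFPAC-1 negative replicate 2 or 3 or CFPAC-1 positive replicate 1 was left out (0.96 to 1.18), with a pseudocount of 0.01, without a filter on low values and without an intensity trend. Without CFPAC-1 positive replicate 3 it was 0.73 (adjusted p = 0.0457). In positive cells SW1990 exceeded CFPAC-1 by 1.22 (SE 0.26, adjusted p = 0.00154), and in negative cells the lines differed by 0.13 (95% interval -0.44 to 0.70, adjusted p = 0.678). SW1990 positive samples thus had the highest *UPK3B* values, although the rise within SW1990 was not called. The other 3 groups overlapped.

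*UPK3B* has a close paralogue, *UPK3BL*, and how reads that match several genes were treated is not given in the sources used here, so that reads could have been shared. *UPK3BL* was much lower, at 4.48 ± 0.471 and 6.20 ± 1.62 RPKM in SW1990 negative and positive cells and 3.83 ± 0.380 and 2.69 ± 0.433 in CFPAC-1 (SD, n = 3). It was not called in either line either (0.44, adjusted p = 0.100 and -0.50, adjusted p = 0.0519), and its difference between the lines was 0.93 (SE 0.26, adjusted p = 0.0196).

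Across members and comparisons, the plot of fitted changes sets the values side by side. The comparisons between the lines share samples with those within them. Between lines, 2 of the 4 uroplakins tested differed in negative cells (*UPK1A* higher and *UPK1B* lower in SW1990) against 68.9% of all genes (40.7% higher and 28.2% lower). In positive cells 3 differed (*UPK2* and *UPK3B* higher and *UPK1B* lower in SW1990) against 62.3% of all genes (32.9% higher and 29.3% lower). These shares are of the same order as those of all genes.

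**Figure D2:**
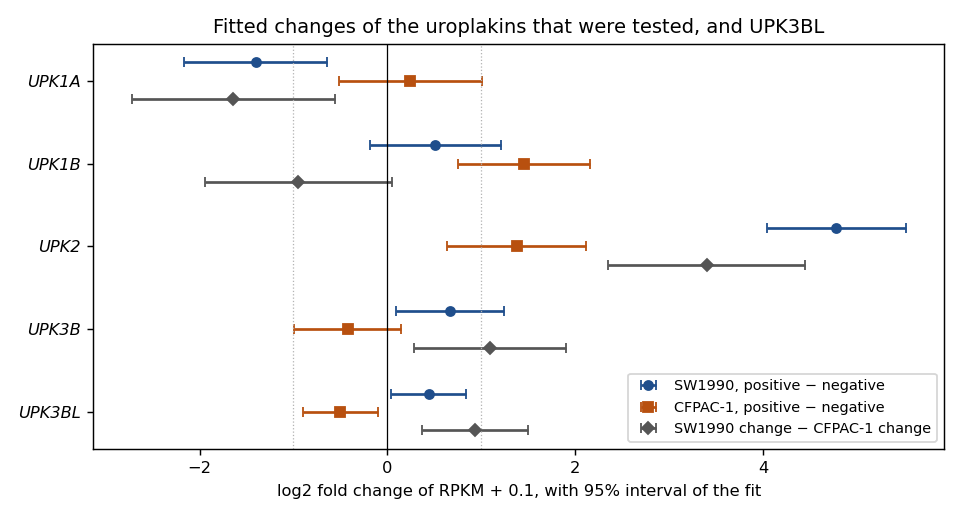
Fitted log2 fold change of RPKM + 0.1 (x axis) with the 95% interval for the 4 uroplakins tested and the paralogue *UPK3BL* (y axis), in SW1990, in CFPAC-1 and as the difference between them, with dotted lines at 2-fold. *UPK2* is to the right of the 2-fold line in both lines (4.78 and 1.38), and *UPK3B* is on opposite sides of 0 (0.67 and -0.42) with intervals of which the CFPAC-1 one spans 0. The *UPK1B* value in SW1990 comes from samples with 3 reads or fewer and depends on the pseudocount.

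Because RPKM is per length, the members can be set against each other as shares of their summed level. The summed uroplakin level was 62.5 ± 7.66 RPKM in SW1990 negative, 146 ± 12 in SW1990 positive, 59.6 ± 12.1 in CFPAC-1 negative and 54.5 ± 21.2 RPKM in CFPAC-1 positive cells (SD, n = 3). *UPK3B* made up 96.4% ± 1.5 of it in SW1990 negative and 93.3% ± 0.679 in CFPAC-1 negative cells. In positive cells its share was 65.4% ± 1.63 in SW1990 and 79.6% ± 2.36 in CFPAC-1. The share of *UPK3B* was thus lower in every positive sample than in every negative sample of its line.

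The share was taken up by *UPK2* in both lines, and by *UPK1B* as well in CFPAC-1. *UPK2* went from 3.03% ± 1.37 to 34.5% ± 1.62 in SW1990, with *UPK1B* at 0.0562% or less. In CFPAC-1, *UPK2* went from 3.79% ± 0.259 to 11.6% ± 1.83 and *UPK1B* from 2.66% ± 0.317 to 8.67% ± 0.559. CFPAC-1 positive replicate 3, whose summed level of 31.1 RPKM was less than those of the other replicates (60.1 and 72.5 RPKM), had shares between theirs for all 3 genes, at 79.8% *UPK3B*, 11.7% *UPK2* and 8.46% *UPK1B*. Its low values were thus common to the 3 genes. These shares are a description, with no test.

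**Figure D3:**
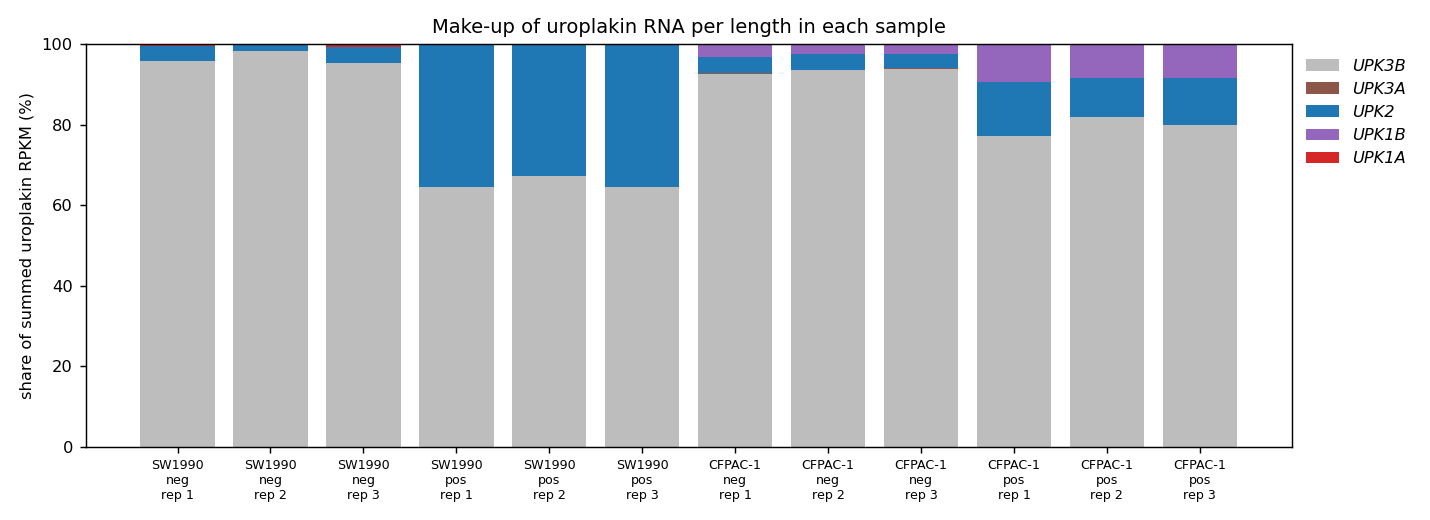
Share of each uroplakin in the summed uroplakin RPKM (y axis, percent) in each of the 12 samples (x axis), stacked from *UPK3B* at the bottom to *UPK1A* at the top. *UPK2* makes up 32.6% to 35.4% in the 3 SW1990 positive samples, and *UPK1B* is visible in CFPAC-1, at 2.47% to 3.03% in negative and 8.25% to 9.31% in positive samples.

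Of the 5 umbrella cell markers on the list used here, *UPK1A*, *UPK2* and *UPK3A* are the uroplakins described above, and *KRT20* and *SNX31* are the others. *KRT20*, a keratin of umbrella cells, had 0 reads in every SW1990 sample and fell by 1.93 on the log2 scale (adjusted p = 0.00185) in CFPAC-1 positive cells, where it was at 3.16 ± 1.22 against 13.0 ± 6.13 RPKM (SD, n = 3). *UPK2* and *KRT20* were thus both above 1 RPKM in every CFPAC-1 sample, and *UPK2* without *KRT20* was found in SW1990. *SNX31*, a sorting nexin of umbrella cells, did not exceed 0.096 RPKM. Of 6 mesothelial markers, *WT1* and *ITLN1* were at 0 in all samples and 1 was at 1 RPKM or more throughout. The mesothelial sum was 23.5 to 28.7 and 45.7 to 61.9 RPKM in SW1990 negative and positive samples, nearly all of it *CALB2*, and 15.3 to 17.4 and 29.0 to 45.0 RPKM in CFPAC-1. In CFPAC-1, *LRRN4* was at 1.87 to 3.48 RPKM in negative and 10.7 to 17.6 in positive samples, *CALB2* at 12.6 to 13.6 and 16.5 to 27.0, and *BNC1*, in the other direction, at 0.0992 to 0.261 and 0.0462 to 0.108. The sum was higher in positive cells of both lines. *UPK1B* was higher in positive cells in CFPAC-1, and in SW1990 it had 3 reads or fewer a sample. *UPK3B* was at 0.67 in SW1990 and, in the other direction, at -0.42 in CFPAC-1, and was called in neither. The part of the mesothelial sum in these results was not tested.

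In the 9 tested genes of uroplakin traffic, which carry plaque vesicles to the apical membrane, 1 rose and none fell in SW1990, with a list median of 0.28 beside -0.04 for all genes. The one that rose was *MYO5B*, a myosin motor of recycling endosomes (1.72, SE 0.17, adjusted p = 1.2e-05). In CFPAC-1, limma called 0 of the 9 (list median 0.00 beside 0.05), with 3 at an unadjusted p under 0.05 and 1 called by voom. Of all genes, 4.59% rose and 7.48% fell in SW1990, and 5.65% rose and 4.13% fell in CFPAC-1. This list and those below were chosen with earlier results of these data known, so that their counts are a description. *MAL*, a proteolipid of apical transport that is named here after its values were seen, was at 1.43 in SW1990 and 1.94 in CFPAC-1 and was called in neither. *SNX31* was among the genes of the list too low to test.

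Of 12 urothelial transcription factors, all tested, 4 rose and none fell in SW1990, with a list median of 0.35 beside -0.04 for all genes. Of all genes, 4.59% rose and 7.48% fell there. The 4 factors that rose were *OVOL1* (4.04, SE 0.26), *GRHL3* (1.52, SE 0.28), *ELF3* (1.39, SE 0.18) and *GATA3* (1.26, SE 0.14), of which *GRHL3* and *GATA3* act in umbrella and luminal urothelial cells. With a pseudocount of 1 *GRHL3* was at 0.53 and lost its call. In CFPAC-1, limma called 0 of the 12 (list median 0.04 beside 0.05), with 5 at an unadjusted p under 0.05 and 0 called by voom. Of all genes, 5.65% rose and 4.13% fell in CFPAC-1. Of the 12, 6 differed between the lines, 5 with the higher change in SW1990, against 26.9% of all genes. *OVOL1* reached 8.69 ± 1.16 RPKM in SW1990 positive cells from 0.461 ± 0.223, while CFPAC-1 was at 7.83 ± 1.92 and 7.95 ± 0.765 RPKM (SD, n = 3).

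Of 8 urothelial keratins, 4 rose and 1 fell in SW1990 (list median 0.72), and 1 rose and 1 fell in CFPAC-1 (list median 0.59). Of all genes, 4.59% rose and 7.48% fell in SW1990, and 5.65% rose and 4.13% fell in CFPAC-1. In SW1990 the largest rise was that of *KRT13*, an intermediate cell keratin (2.63, SE 0.42, adjusted p = 0.000498), followed by *KRT19* (1.57) and *KRT8* (1.39), keratins of simple epithelia. *KRT14*, a basal cell keratin, fell by 1.41 (adjusted p = 0.0122). It lost its call without SW1990 negative replicate 1 or 2 (-1.28 in each case), without SW1990 positive replicate 1 (-1.07), with pseudocounts of 1 (-0.51) and 0.01 (adjusted p = 0.154) and when the SW1990 groups were fitted alone. In CFPAC-1 the basal keratin *KRT5* rose by 2.39 (SE 0.43, adjusted p = 0.00144), from a mean of 0.103 RPKM that rests on 0 to 8 reads a sample, while *KRT20* fell. The *KRT5* call was lost with a pseudocount of 1 (0.82). *KRT18* rose in SW1990 too (1.29). *KRT7*, *KRT8*, *KRT18* and *KRT19* also stand on the ductal marker list above, so that the lists share these genes.

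Of the 26 other tetraspanins tested, 3 rose and 3 fell in SW1990, with a list median of -0.04 that equalled that of all genes, and 1 rose and none fell in CFPAC-1 (list median -0.31 beside 0.05). Of all genes, 4.59% rose and 7.48% fell in SW1990, and 5.65% rose and 4.13% fell in CFPAC-1. *TSPAN18* was the tetraspanin on this list that rose in both lines, by 2.85 (SE 0.20) in SW1990 and 1.35 (SE 0.20) in CFPAC-1. *TSPAN1* rose by 2.21 in SW1990, whereas *CD37*, a leukocyte tetraspanin, was at -2.82 and *TSPAN8* at -2.15, and the last pair lost their calls with a pseudocount of 1. Of 5 tetraspanin partners, *EPCAM* (3.04, SE 0.15) and its binding partner *CLDN7* (3.01, SE 0.22) rose in SW1990 (list median 0.50). In CFPAC-1, limma called 0 of the 5 (list median 0.00), with 2 at an unadjusted p under 0.05 and 0 called by voom. The plot of the list genes places *UPK2* farthest to the right of all.

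**Figure D4:**
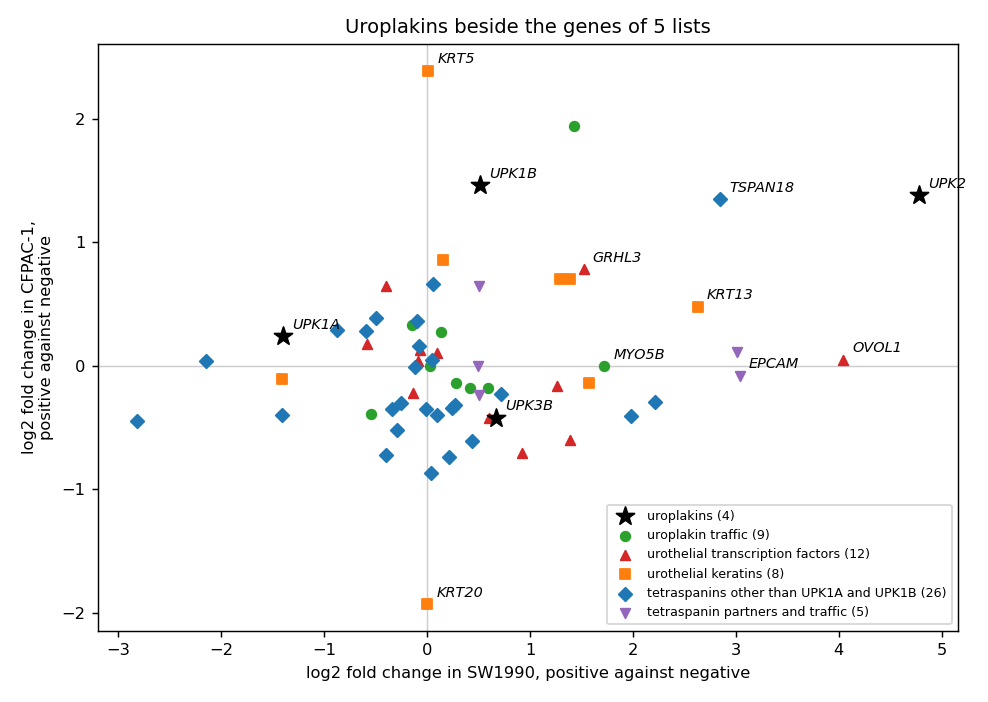
Fitted log2 fold change in SW1990 (x axis) against that in CFPAC-1 (y axis), positive against negative cells, for the tested genes of the uroplakins (stars) and of 5 lists, with the number tested in brackets. *UPK2* (4.78 and 1.38) and *TSPAN18* (2.85 and 1.35) were called in both lines, and the unlabelled traffic gene at 1.43 and 1.94 is *MAL*, called in neither, whereas *OVOL1* and *EPCAM* are high on the SW1990 axis alone and *KRT5* on the CFPAC-1 axis alone.

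Genes next to the uroplakins were read as a local comparison. *ZBTB32*, a zinc finger gene 26076 bases beyond *UPK1A*, changed by 1.09 (adjusted p = 0.0147) in SW1990, against -1.40 for *UPK1A*. It lost its call without SW1990 negative replicate 1 (1.06) or 2 (0.95), without SW1990 positive replicate 3 (0.99) and with pseudocounts of 1 (0.77) and 0.01. *B4GALT4*, a galactosyltransferase gene on the opposite strand 6588 bases beyond *UPK1B*, was at 0.80 (adjusted p = 0.000127) in SW1990, under the 2-fold limit, and at -0.07 (adjusted p = 0.66) in CFPAC-1, where *UPK1B* rose.

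*DTX2*, a ubiquitin ligase gene on the same strand that ends 4529 bases before *UPK3B*, had values near those of its uroplakin neighbour. It was at 0.59 (SE 0.13, adjusted p = 0.00375) in SW1990 and -0.50 (SE 0.13, adjusted p = 0.00928) in CFPAC-1, with a difference between the lines of 1.09 (SE 0.18, adjusted p = 0.000927). For *UPK3B* these values were 0.67, -0.42 and 1.09. *POMZP3*, the neighbour on the other side of *UPK3B*, was at -0.05 (adjusted p = 0.921) in SW1990 and -0.80 (adjusted p = 0.0235) in CFPAC-1. *KIAA0930*, 44054 bases before *UPK3A* on the opposite strand, was at -0.55 (adjusted p = 0.00518) in SW1990 and -0.06 (adjusted p = 0.742) in CFPAC-1. The level of *DTX2* was 24.8 ± 2.55 and 37.5 ± 4.14 RPKM in SW1990 negative and positive cells and 51.1 ± 5.48 and 36.2 ± 4.82 RPKM in CFPAC-1 (SD, n = 3).

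The genes whose pattern over the 12 samples was most like that of a uroplakin were ranked by the root mean square difference of mean-centred log2 values among 13266 genes of 1 RPKM or more on average. For *UPK1B* they were *EPHX3*, an epoxide hydrolase (0.330), *PPP1R1C*, a phosphatase inhibitor (0.396), and *MAGEA6*, a cancer testis antigen (0.401). *PPP1R1C* and *MAGEA6*, like *UPK1B* in negative cells, were at 0 in SW1990. *MAGEA6* has near-identical copies, so that its reads are uncertain.

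For *UPK2* they were *FUT3*, the fucosyltransferase of Lewis antigen synthesis (0.662), *C6orf15* (0.706) and *ZBED2*, a zinc finger gene (0.731). *FUT3*, whose close paralogues could share its reads, averaged 1.13 ± 0.616 RPKM in SW1990 negative and 29.3 ± 8.30 RPKM in SW1990 positive samples, against 0.457 ± 0.0820 and 4.46 ± 1.12 RPKM in CFPAC-1 (SD, n = 3). For *UPK3B* they were *TAB3*, an adaptor of the TAK1 kinase (0.243), *BRP44L*, a subunit of the mitochondrial pyruvate carrier (0.257), and *AKTIP* (0.262). These distances describe likeness over 12 samples that share 2 lines and carry no test.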

How the data were processed

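Poly(A) RNA of 12 sorted samples was sequenced, 3 in each of 4 groups set by line and GCTM-5 staining in the labels. Reads were aligned by the authors to the hg19/GRCh37 genome, and the deposited RPKM values came from QuasR, which scaled reads for library size and gene length. The gene annotation, the use of strand, the treatment of reads that match several genes and the QuasR version are not given in the sources used here. The study's TCC test was not run, and limma was used as a test for RPKM values on a log scale.

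The RPKM values were used as deposited. Library totals (9969697 to 26159330) were recovered from the values of single-exon genes with their GENCODE 44 lengths. For each gene the smallest length that gave whole reads to within 0.01 in all samples was then taken. Such a length was found for 19653 of the 19654 genes above 0. Whole reads were thus the criterion and not a check. Among the members, only the *UPK2* length equalled that of an annotated transcript. Recovered reads served for the limit of 3 reads, the counting intervals and 1 alternative. Log2(RPKM + 0.1) was fitted with limma 3.58.1 in R 4.3.3 (4 group means, eBayes with a trend, 2-sided) over genes at or above an average of 0.1 RPKM, and p-values were adjusted by Benjamini-Hochberg over the 16236 genes tested. Calls used over 2-fold and an unadjusted p under 0.01 within a line, and an adjusted p under 0.05 otherwise. The scripts were tested on simulated data.

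The members, lists, markers and motifs were chosen with earlier results of these data known. Named genes are the members, other symbols starting with UPK, the neighbours on GRCh37, up to 4 called genes per list and line and the 3 genes most alike each member that was called and averaged 1 RPKM or more. From these, text gives neighbours whose adjusted p was under 0.05 in a line. Alternatives were pseudocounts of 1 and 0.01, no filter or an average of 1 RPKM, median centring, quantile normalization, a replicate block, no trend, a fit of the compared groups alone, calls on adjusted p and each sample left out. Promoters are from RefSeq on GRCh38.p14, and no coordinate was converted. Python 3.11.15, pandas 2.3.3, numpy 2.4.6, scipy 1.17.1 and matplotlib 3.10.9 were used.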

Additional observations from a re-analysis of the deposited data

Results flagged for a closer look

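The change with GCTM-5 differed between SW1990 and CFPAC-1, by limma's test of that difference at an adjusted p under 0.05, for 3 uroplakins. It was 3.40 higher on the log2 scale in SW1990 for *UPK2* and 1.09 higher for *UPK3B*, and it was -1.64 for *UPK1A*, whose SW1990 change rests on 24 reads against 4. The *UPK3B* paralogue *UPK3BL* gave 0.93 and its neighbour *DTX2* 1.09.

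Other genes named beside the uroplakins passed the same test. Higher changes in SW1990 were found for *OVOL1* (3.99), *EPCAM* (3.11), *CLDN7* (2.89), *TSPAN1* (2.50), *KRT13* (2.15), *ELF3* (1.99), *C6orf15* (1.79), *MYO5B* (1.73), *KRT19* (1.71), *FUT3* (1.66), *TSPAN18* (1.5), *GATA3* (1.41), *TAB3* (1.04), *B4GALT4* (0.87), *BCL9L* (0.77) and *KRT8* (0.69). For *KRT20* the value of 1.93 is the fall in CFPAC-1 alone, since all SW1990 samples were at 0. Changes that were lower in SW1990 were found for *KRT5* (-2.38), *CD37* (-2.36), *TSPAN8* (-2.20), *EPHX3* (-1.28) and *MAGEA6* (-2.12), which was at 0 in SW1990. Of these, *EPHX3*, *KRT8* and *FUT3* missed the threshold in 14, 13 and 7 of 21 alternatives, *KRT13* and *TSPAN8* in 2 each, *KRT20* and *MAGEA6* in 1 each and *CD37* in 1 of 20. *UPK3B* missed it in 12 of 21 and *UPK1A* in 10 of 20.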

How the results depend on the processing

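With 3 samples a group, exact tests cannot go below 0.1, and genes at 3 reads or fewer cannot be ordered. Values were recomputed under 23 alternatives (22 between lines in one population, 21 for the difference between lines). The number of uroplakins called fell from 2 to 1 in SW1990 with pseudocounts of 1 and 0.01 and with an average of at least 1 RPKM, from 2 to 1 in CFPAC-1 with a pseudocount of 0.01, and from 2 to 1 between negative cells with an average of at least 1 RPKM, which drops *UPK1A*. For the difference between lines, 3 became 1 with a pseudocount of 0.01, and 1 to 4 when a sample was left out. In that comparison *UPK1A* also lost its call with quantile normalization, and *UPK3B* lost its call without a filter and without a trend. An average of at least 1 RPKM drops *UPK1A* there too, and a pseudocount of 1 added *UPK1B*. No setting moved the 3 called between positive cells. The cause was not tested. Uncalled values that changed sign were *UPK1B* between lines with a pseudocount of 0.01 (0.48) and with voom, an alternative chosen after seeing the data (0.23), *UPK3B* between negative cells with median centring (-0.06) and over left-out samples (-0.05 to 0.25), *UPK2* between negative cells (-0.64 to 0.05) and *UPK1A* between positive cells (-0.13 to 0.32). *UPK2* kept its calls, with rises of 4.20 to 5.08 in SW1990, and of 1.11 to 1.72 in CFPAC-1. A pseudocount of 1 cut all genes called from 1961 to 1101 in SW1990 and from 1588 to 759 in CFPAC-1. Median centring moved the median of all genes between lines from -0.15 to 0.00 and between negative cells from 0.19 to 0.01. With it the share of calls upwards went from 57.7% to 45.8% in CFPAC-1, and between lines from 34.0% to a split of 1987 higher and 1988 lower, where quantile normalization gave 47.0%. Whether positive and negative samples with the same replicate number came from the same sort was not tested. Correlations were taken between the log2 deviations of positive and of negative samples from their own group means, and not between the levels themselves. For samples of the same number these correlations were 0.016 to 0.185 (SW1990) or -0.059 to 0.001 (CFPAC-1), not always highest with their own number. For samples with different numbers they were -0.254 to 0.162 (SW1990) or -0.033 to 0.042 (CFPAC-1). With the number as a replicate block the counts of uroplakins called stayed at 2, 2, 3, 2 and 3 in SW1990, CFPAC-1, the difference, negative and positive cells, and 1961 and 1587 genes were called in SW1990 and CFPAC-1.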
